A study of Canis lupus familiaris with 8 samples.

Results

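The cytosolic ribosomal protein genes encode the protein parts of the ribosome that translates nuclear-encoded messenger RNA. They were taken as the rows whose symbol is RPL or RPS followed by a digit, or RPLP0, RPLP1, RPLP2 or RPSA, without the S6 kinases and other proteins with like names. For a symbol given to several rows, the row with the most reads over all libraries was kept. This left 66 genes of the 24580 gene rows, 38 of the large subunit and 28 of the small subunit. The rule used no measured value other than that read total, and the set was proposed with earlier results of these data known.

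Each ribosome holds 1 copy of nearly every one of these proteins, so their genes are transcribed at high and matched levels in growing and secreting cells. Their messenger RNAs carry a terminal oligopyrimidine (TOP) tract at the cap, through which the kinase mTOR and the RNA-binding protein LARP1 set how much of them is translated. In the pituitary they serve cells that secrete protein hormones, and in the adrenal cortex they serve cells that make steroids under the control of the pituitary hormone ACTH.

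RNA sequencing was carried out on pituitary and adrenal cortex of adult dogs of 2 breeds, the Chinese Field Dog and the Beagle. In each tissue and breed there was 1 library under chronic stress exposure and 1 labelled as non-disposal, called unexposed here, which makes 8 libraries with 1 per group. The 8 groups are stressed and unexposed Chinese Field Dog pituitary, stressed and unexposed Beagle pituitary, stressed and unexposed Chinese Field Dog adrenal cortex, and stressed and unexposed Beagle adrenal cortex. The labels do not say what the stress was, how many dogs gave each library, or whether the tissues were paired by dog, and the extraction note speaks of spleen while titles and tissue fields give pituitary and adrenal cortex.

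The libraries held 14327356 to 18712035 reads on genes. The tissue labels matched the markers. The summed FPKM (fragments per kilobase of transcript scaled to the reads mapped) of 8 pituitary hormone and lineage genes was 81999.7 to 165569 in pituitary libraries and 31.2 to 53.7 in adrenal cortex libraries. That of the 4 adrenal cortex markers found (STAR, CYP17A1, CYP11A1 and MC2R) was 7.99 to 29.6 in pituitary libraries and 11658 to 15592 in adrenal cortex libraries. One library stood apart. In the stressed Chinese Field Dog pituitary, 10 forebrain neuron markers summed to 1843 FPKM, against 137 to 141 FPKM in the other pituitary libraries, 8 astrocyte and oligodendrocyte markers to 634 FPKM, against 36.9 to 111 FPKM, and 8 lymphocyte markers to 174 FPKM, against 7.67 to 21.4 FPKM. Of the lymphocyte sum in that library, CCL5 alone gave 138 FPKM. MS4A1 was at 0.176 FPKM there and at 0.166 FPKM in the unexposed Beagle pituitary. CD79B alone was not highest there, at 4.01 FPKM against 5.30 FPKM in the unexposed Beagle pituitary. No forebrain neuron marker was listed at 0 in the stressed Chinese Field Dog pituitary, and 2 or 3 of the 10 were listed at 0 in each other pituitary library. In the adrenal cortex libraries, 6 markers of the adrenal medulla summed to 3160.4 to 5492 FPKM. They are not all particular to the medulla: their sum was 1319 to 1671 FPKM in pituitary libraries, where CHGB alone was at 1014 to 1339 FPKM. The tissue results over the gene lists, the pituitary share and the order of the pituitary libraries are also given below without this library.

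Of the 66 genes, 56 reached a mean of 1 FPKM over the 8 libraries, the minimum for testing, and these were 33 genes of the large and 23 of the small subunit. The other 10 rows (RPS4X, RPS27L, RPL36, RPL30, RPL37A, RPL7A, RPS26, RPS19, RPS2 and RPL38) held 0 to 40 reads in all 8 libraries together. RPS19 had 1 read and RPS26 had 1 read, and RPS2 and RPL38 had 0, where 3 reads is the limit that a count of 0 allows. Such levels belong to the rows that carry these symbols in the annotation used, and not necessarily to every transcript of the gene. A search of the dog RefSeq gene table (assembly UU_Cfam_GSD_1.0) by the same rule gave 80 protein-coding symbols, of which 62 were among the 66 genes and 18 were not, among them RPLP1, RPLP2, RPL11 and RPL35A.

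Some rows without a symbol were described in the files as ribosomal proteins, and they show where some reads of near-identical genes lie. The row with the symbol RPL13A held 13 reads in all libraries and averaged 0.896 ± 0.368 FPKM in pituitary and 1.13 ± 0.616 FPKM in adrenal cortex (SD, n = 4 each). An unnamed row described as 60S ribosomal protein L13a averaged 1976 ± 266 FPKM in pituitary and 4772 ± 704 FPKM in adrenal cortex (SD, n = 4 each). RPL13A values below therefore describe a weakly covered row.

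Among the 56 genes tested, mean levels per length ran from 1.01 to 7993 FPKM. The mean over 8 libraries was at least 1000 FPKM for 37 genes and at least 100 FPKM for 50. The highest mean FPKM belonged to RPS21, RPS27A, RPL12, RPS14 and RPL27A, and the lowest among the genes named here to RPL17, RPL21, RPL10L and RPL13A. RPL7 had the most reads, 235302 over the 8 libraries, with RPS6, the target of the S6 kinases, next at 230908. RPS21 led per length at a mean of 7993 FPKM on 92018 reads.

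**Figure D1:**
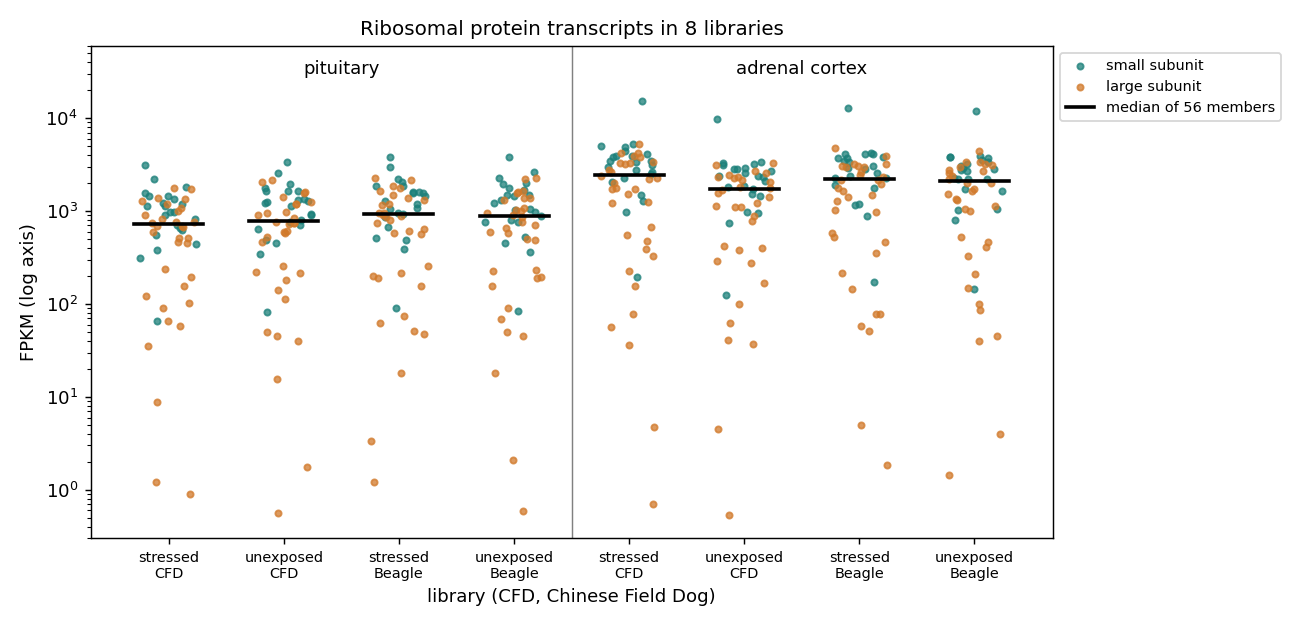
FPKM of the 56 tested ribosomal protein genes (vertical log axis) in each of the 8 libraries, with 4 pituitary libraries left of 4 adrenal cortex libraries; points are genes coloured by subunit and black lines are medians. The medians lie between 722 and 935 FPKM in pituitary and between 1742 and 2456 FPKM in adrenal cortex.

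The main difference was between the tissues. Ribosomal protein transcripts were lower in pituitary than in adrenal cortex for nearly the whole set. The median over the 56 genes was 722 FPKM in stressed and 790 FPKM in unexposed Chinese Field Dog pituitary, and 935 FPKM in stressed and 891 FPKM in unexposed Beagle pituitary. It was 2456 FPKM in stressed and 1742 FPKM in unexposed Chinese Field Dog adrenal cortex, and 2214 FPKM in stressed and 2112 FPKM in unexposed Beagle adrenal cortex. The lowest adrenal cortex median was above the highest pituitary median.

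Expressed as a share of all reads on genes, the 66 genes took 2.40% in the stressed and 2.98% in the unexposed Chinese Field Dog pituitary, and 3.22% in the stressed and 3.29% in the unexposed Beagle pituitary. In adrenal cortex they took 5.99% for the stressed and 4.71% for the unexposed Chinese Field Dog, with 5.49% for the stressed and 5.19% for the unexposed Beagle. The mean share was 2.97% ± 0.407 in pituitary and 5.35% ± 0.538 in adrenal cortex (SD, n = 4 each). The 95% Wilson interval of a single share was narrow, 2.39% to 2.40% in the stressed Chinese Field Dog pituitary for example, and covers counting error only. Growth hormone (GH1), a major pituitary transcript, was listed at 0 in the unexposed Beagle pituitary, where the authors marked it as not quantified. With GH1 left out of the totals the mean share was 3.1% in pituitary and 5.35% in adrenal cortex. The share was then 3.40% in the stressed and 3.29% in the unexposed Beagle pituitary, the reverse of their order with GH1 included. In the Chinese Field Dog pituitary it was 2.54% stressed and 3.17% unexposed, in the same order as before. With the 10 most abundant other genes of each library left out the mean share was 3.44% in pituitary and 6.22% in adrenal cortex. The reads of small subunit genes divided by those of large subunit genes came to 1.02 to 1.03 in the pituitary libraries and 1.05 to 1.07 in the adrenal cortex libraries.

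In the fit across all genes, 53 of 56 ribosomal protein genes passed an adjusted p of 0.05 (limma on log2(FPKM + 1), Benjamini-Hochberg over 14808 genes), all 53 lower in pituitary. Of all genes tested, 60.1% passed, 31.0% as lower in pituitary. For the same 53 genes every pituitary library lay below every adrenal cortex library, which held for 29.5% of all genes tested. The median log2 difference, pituitary minus adrenal cortex, was -1.13 over the 56 genes (interquartile range -1.38 to -0.94), or 2.19-fold lower, and 0.00 over all genes. It was -1.11 over the 33 large subunit genes and -1.26 over the 23 small subunit genes, a difference between the subunits that was not tested. In the 4 breed and exposure combinations taken singly the median was -1.58 in stressed Chinese Field Dogs, -0.93 in unexposed Chinese Field Dogs, -1.08 in stressed Beagles and -1.05 in unexposed Beagles. Without the stressed Chinese Field Dog pituitary, 52 genes passed with a median of -1.03, RPL22L1 being the gene lost, and the log2 differences of single genes moved by -0.13 to 0.33. The 3 other pituitary libraries lay below every adrenal cortex library for 53 genes, against 33.5% of all genes, and their mean share of reads was 3.17% ± 0.166 (SD, n = 3). In bulk tissue, fewer cells with a high level and less of the transcript in each cell cannot be told apart, and a smaller share of the library need not be a smaller amount per cell.

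**Figure D2:**
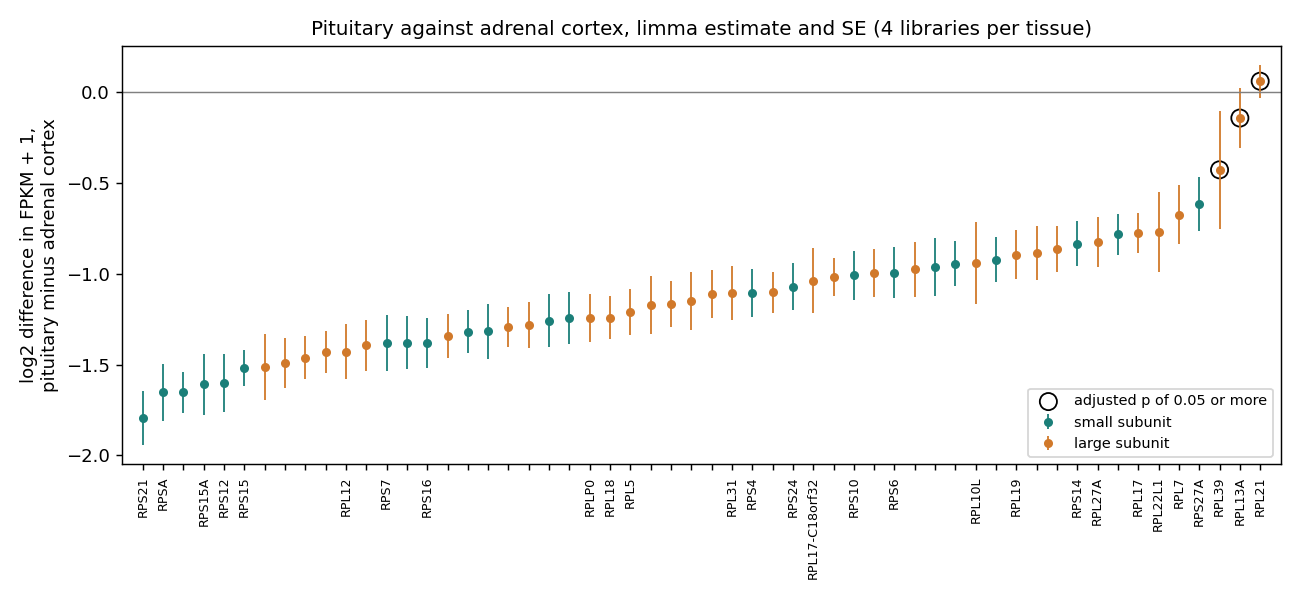
Log2 difference in FPKM + 1, pituitary minus adrenal cortex, for each of the 56 genes (limma estimate with its SE, 4 libraries per tissue), ordered by size and coloured by subunit, with symbols for the genes named in the text. All but RPL21 lie below 0 (RPL21 does too with libraries centred on their medians), and the 3 circled genes (RPL39, RPL13A and RPL21) did not pass an adjusted p of 0.05.

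The 5 lowest log2 differences were all of small subunit genes. RPS21, a protein of the small subunit, was at 3105 FPKM in stressed and 3404 FPKM in unexposed Chinese Field Dog pituitary and at 3843 FPKM in stressed and 3854 FPKM in unexposed Beagle pituitary. Adrenal cortex levels were 15231 FPKM for the stressed and 9701 FPKM for the unexposed Chinese Field Dog, with 12924.5 FPKM for the stressed and 11879.7 FPKM for the unexposed Beagle. The tissues were far apart, with a log2 difference of -1.79 (SE 0.15, limma adjusted p = 0.000205). The RPS21 row (ENSCAFG00000012676, chromosome 24 from 45794448 to 46537627 in CanFam3.1) spans 743180 bp, far longer than the gene is known to be in other mammals, so reads of neighbouring sequence in that row cannot be told apart from those of RPS21.

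RPSA (chromosome 23 from 9070952 to 9077058) encodes a small subunit protein that also serves as the laminin receptor precursor. It was at 627 FPKM in stressed and 767 FPKM in unexposed Chinese Field Dog pituitary and at 961 FPKM in stressed and 795 FPKM in unexposed Beagle pituitary. Adrenal cortex levels were 2958 FPKM for the stressed and 2086 FPKM for the unexposed Chinese Field Dog, with 2597 FPKM for the stressed and 2240.4 FPKM for the unexposed Beagle. Its lowest adrenal cortex library was more than double its highest pituitary library, and the log2 difference was -1.65 (SE 0.16, adjusted p = 0.000357).

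RPS15A averaged 721 ± 127 FPKM in pituitary and 2199 ± 366 FPKM in adrenal cortex, and RPS12 averaged 1339 ± 179 FPKM in pituitary and 4108 ± 869 FPKM in adrenal cortex (SD, n = 4 each). The log2 differences were -1.61 (SE 0.17) for RPS15A and -1.60 (SE 0.16) for RPS12. RPS15, in the head of the small subunit, had the lowest adjusted p of the set, 8.92e-05 by limma. It averaged 979.7 ± 83.3 FPKM in pituitary and 2816 ± 315 FPKM in adrenal cortex (SD, n = 4 each).

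RPLP0, the stalk protein of the large subunit that helps bind elongation factors, stood near the middle of the set. It was at 745 FPKM in stressed and 833 FPKM in unexposed Chinese Field Dog pituitary and at 953 FPKM in stressed and 964 FPKM in unexposed Beagle pituitary. Adrenal cortex levels were 2404 FPKM for the stressed and 1677 FPKM for the unexposed Chinese Field Dog, with 2182 FPKM for the stressed and 2030.3 FPKM for the unexposed Beagle. RPLP0 is often used as a reference gene, and here its log2 difference between the tissues was -1.24 (SE 0.13, limma adjusted p = 0.000537).

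The smallest differences among genes that passed were those of RPS27A, RPL7 and RPL22L1. RPS27A, which is made as a fusion of ubiquitin and a small subunit protein, averaged 2607 ± 315 FPKM in pituitary and 4026 ± 727 FPKM in adrenal cortex (SD, n = 4 each; log2 difference -0.62, SE 0.15, limma adjusted p = 0.0133). RPL7, a large subunit protein, averaged 2105 ± 234 FPKM in pituitary and 3388 ± 622 FPKM in adrenal cortex (SD, n = 4 each; log2 difference -0.68, SE 0.16, limma adjusted p = 0.0134). RPS27A and RPL7 were thus among the genes with the highest levels and the smallest differences.

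RPL21 was the exception in direction. It was at 58.1 FPKM in stressed and 45.2 FPKM in unexposed Chinese Field Dog pituitary and at 47.7 FPKM in stressed and 44.8 FPKM in unexposed Beagle pituitary, against 56.6 FPKM in stressed and 40.7 FPKM in unexposed Chinese Field Dog adrenal cortex and 51.6 FPKM in stressed and 40 FPKM in unexposed Beagle adrenal cortex. The tissues overlapped, and the log2 difference was 0.06 (SE 0.09, adjusted p = 0.591 by limma) on 6827 reads. It was -0.02 with libraries centred on their medians and -0.07 with a second RPL21 row added. That second row averaged 4.77 ± 0.853 FPKM in pituitary and 9.61 ± 2.01 FPKM in adrenal cortex (SD, n = 4 each). RPL39 overlapped as well, with a log2 difference of -0.43 (SE 0.33, adjusted p = 0.296 by limma) on 155 reads in all.

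Of the paralogs, RPL22L1, the alternative form of RPL22, averaged 61.7 ± 8.05 FPKM in pituitary and 109 ± 32.7 FPKM in adrenal cortex (SD, n = 4 each; log2 difference -0.77, SE 0.22, limma adjusted p = 0.0257). The adjusted p lay between 0.0553 and 0.0756 without any 1 of 5 libraries, which were 3 pituitary libraries (all but the unexposed Beagle) and the unexposed adrenal cortex libraries of both breeds. RPL10L, a retrogene that in mouse serves the testis in place of RPL10, averaged 2.01 ± 1.0 FPKM in pituitary and 4.56 ± 0.409 FPKM in adrenal cortex (SD, n = 4 each; log2 difference -0.94, SE 0.23, limma adjusted p = 0.0129). RPL22 and RPL10, the genes they resemble, have no row under these symbols, so no level of the pair can be set side by side.

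RPS4 lies on the X chromosome (from 56290581 to 56296314) and is the only tested gene there. It averaged 828 ± 98.4 FPKM in pituitary and 1790.1 ± 269 FPKM in adrenal cortex (SD, n = 4 each; log2 difference -1.11, SE 0.13). The row with the symbol RPS4X was placed on chromosome 8 and held 40 reads. RPL30 and RPS2, the other rows on the X chromosome, held 2 reads and 0 reads.

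Some of these genes cause Diamond-Blackfan anaemia in humans through loss of 1 copy. Of them, RPS19 and RPS26 had 1 read each and were not tested. RPL5, part of the 5S particle that binds the p53 regulator MDM2, averaged 145 ± 15.7 FPKM in pituitary and 337 ± 47.0 FPKM in adrenal cortex (SD, n = 4 each). The log2 differences were -1.21 (SE 0.13) for RPL5, -1.38 (SE 0.15) for RPS7, -1.07 (SE 0.13) for RPS24 and -1.01 (SE 0.14) for RPS10, all past the threshold by limma. The RPS24 row spans 500095 bp, and a second row of that symbol held 54.0% as many reads.

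Rows outside the set with ribosomal protein names gave similar values. Of 21 further rows that repeat a symbol of the set, 17 were tested and 16 passed as lower in pituitary by limma (median log2 difference -0.92). Of 28 unnamed rows described as cytosolic ribosomal proteins, 14 were tested and 12 passed as lower in pituitary (median -1.03). Of all genes tested, 31.0% were called lower. How the authors' counting divided reads between these near-identical rows is not given in the sources used here.

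Other genes of the translation machinery were also lower in pituitary. Of 20 listed genes with TOP messages or ribosomal proteins under other symbols, 15 were found and tested. All 15 passed as lower in pituitary, against 31.0% of all genes, with a median log2 difference of -1.0. The list was chosen with earlier results of these data known. TPT1, the growth-related protein whose message is a classic TOP RNA, averaged 1968 ± 201 FPKM in pituitary and 6844 ± 999 FPKM in adrenal cortex (SD, n = 4 each). EEF1A1, which delivers transfer RNA to the ribosome, had a log2 difference of -1.17 (SE 0.14). EEF1D, a subunit of the exchange factor for EEF1A1, had the largest difference on the list at -2.83 (SE 0.16).

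Mitochondrial ribosomal protein genes, which serve a separate ribosome, had a smaller median difference. Of 62 tested, 50 passed as lower in pituitary and 0 as higher (limma), against 31.0% of all genes lower. The median log2 difference was -0.66. MRPL14 averaged 10.2 ± 0.815 FPKM in pituitary and 41.4 ± 9.83 FPKM in adrenal cortex (SD, n = 4 each), the largest difference on that list. The difference between the medians of the mitochondrial and cytosolic lists was not tested. Without the stressed Chinese Field Dog pituitary the median was -0.63 over the mitochondrial list, with 50 genes passing as lower and 1 as higher. It was -0.97 over the 15 TOP and related genes, all lower, against 32.1% of all genes lower.

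Among 31 tested ribosome assembly genes, 22 passed as lower in pituitary and 1 as higher (median log2 difference -0.45). Of all genes tested, 31.0% passed as lower and 60.1% in either direction. FBL, the methyltransferase fibrillarin of the nucleolus, averaged 37.8 ± 3.21 FPKM in pituitary and 93.5 ± 11 FPKM in adrenal cortex, and POLR1A, the largest subunit of RNA polymerase I, averaged 6.81 ± 0.448 FPKM in pituitary and 12.9 ± 0.857 FPKM in adrenal cortex (SD, n = 4 each). WDR12, of the large subunit assembly complex with PES1 and BOP1, was the 1 gene that passed as higher in pituitary. Its log2 difference was 0.33 (SE 0.10, limma adjusted p = 0.0307). Without the stressed Chinese Field Dog pituitary, 23 assembly genes passed as lower and 0 as higher (limma, median -0.44), against 32.1% of all genes lower. The call of WDR12 was lost without any 1 of 7 libraries, that one among them, with adjusted p between 0.0557 and 0.0976, and held only without the unexposed Beagle adrenal cortex.

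The 26 listed regulators of TOR signalling and TOP messages were mixed. In pituitary 12 passed as lower and 5 as higher (limma), with a median log2 difference of -0.28. Of all genes tested, 31.0% were called lower and 60.1% in either direction. EIF4EBP1, the translation repressor that mTOR inactivates, averaged 10.9 ± 1.28 FPKM in pituitary and 108 ± 19.8 FPKM in adrenal cortex (SD, n = 4 each; log2 difference -3.19, SE 0.16). MYC, a transcription factor that raises ribosome production, had a log2 difference of -2.02 (SE 0.10). The higher genes included SESN3 at 1.51 (SE 0.18) and SESN2 at 1.06 (SE 0.11), both restraints on mTOR complex 1. The others were TSC1 at 0.73 (SE 0.09), RPTOR at 0.65 (SE 0.12) and DEPTOR at 0.32 (SE 0.10). SESN1, of the same family as SESN2 and SESN3, was among the 12 lower genes at -0.82 (SE 0.17), as was AKT1S1 at -0.85 (SE 0.10). MTOR itself had a log2 difference of -0.11 (SE 0.10, limma adjusted p = 0.379). Without the stressed Chinese Field Dog pituitary, 12 of these regulators passed as lower and 5 as higher (limma, median -0.25), against 32.1% of all genes lower.

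Across the 8 libraries, the genes outside the set whose log2(FPKM + 1) was most like the mean of the 56 genes were sought among 7589 named genes with a mean of at least 10 FPKM. The 10 with the highest Pearson r were NACA (0.999), NUDT22, GNB2L1, RFC1, SAT2, PARL, TUBB1, PFDN5, KARS and ACOT8 (0.996). The points share their libraries, and the tissue difference makes up most of their spread, so r is given as a description. NACA, which shields new peptide chains at the ribosome, was at 524 FPKM in stressed and 621 FPKM in unexposed Chinese Field Dog pituitary and at 686 FPKM in stressed and 643 FPKM in unexposed Beagle pituitary. Adrenal cortex levels were 2127 FPKM for the stressed and 1402 FPKM for the unexposed Chinese Field Dog, with 1751 FPKM for the stressed and 1647 FPKM for the unexposed Beagle, which is the order of the libraries in the ribosomal protein medians. GNB2L1 encodes RACK1, a scaffold on the small subunit.

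Within each tissue many of the genes shared 1 order of the libraries. In adrenal cortex, 41 of 56 genes had the same order of 4 libraries, stressed Chinese Field Dog above stressed Beagle above unexposed Beagle above unexposed Chinese Field Dog, an order shown by 4.78% of all genes tested. The stressed Chinese Field Dog adrenal cortex was the highest of the 4 for 52 genes (29.8% of all genes), and the unexposed one of that breed was the lowest for 50 (22.3% of all genes). In pituitary, 31 of 56 genes ran from stressed Beagle through unexposed Beagle and unexposed Chinese Field Dog to the stressed Chinese Field Dog, an order shown by 7.33% of all genes. The stressed Chinese Field Dog pituitary was the lowest of the 4 for 48 genes (40.4% of all genes). Among the 3 other pituitary libraries the order of stressed Beagle, unexposed Beagle and unexposed Chinese Field Dog was shown by 33 genes, against 14.9% of all genes. These orders were noticed in the data and rest on single libraries. The genes share each library and its scaling, so they are not independent counts of it.

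**Figure D3:**
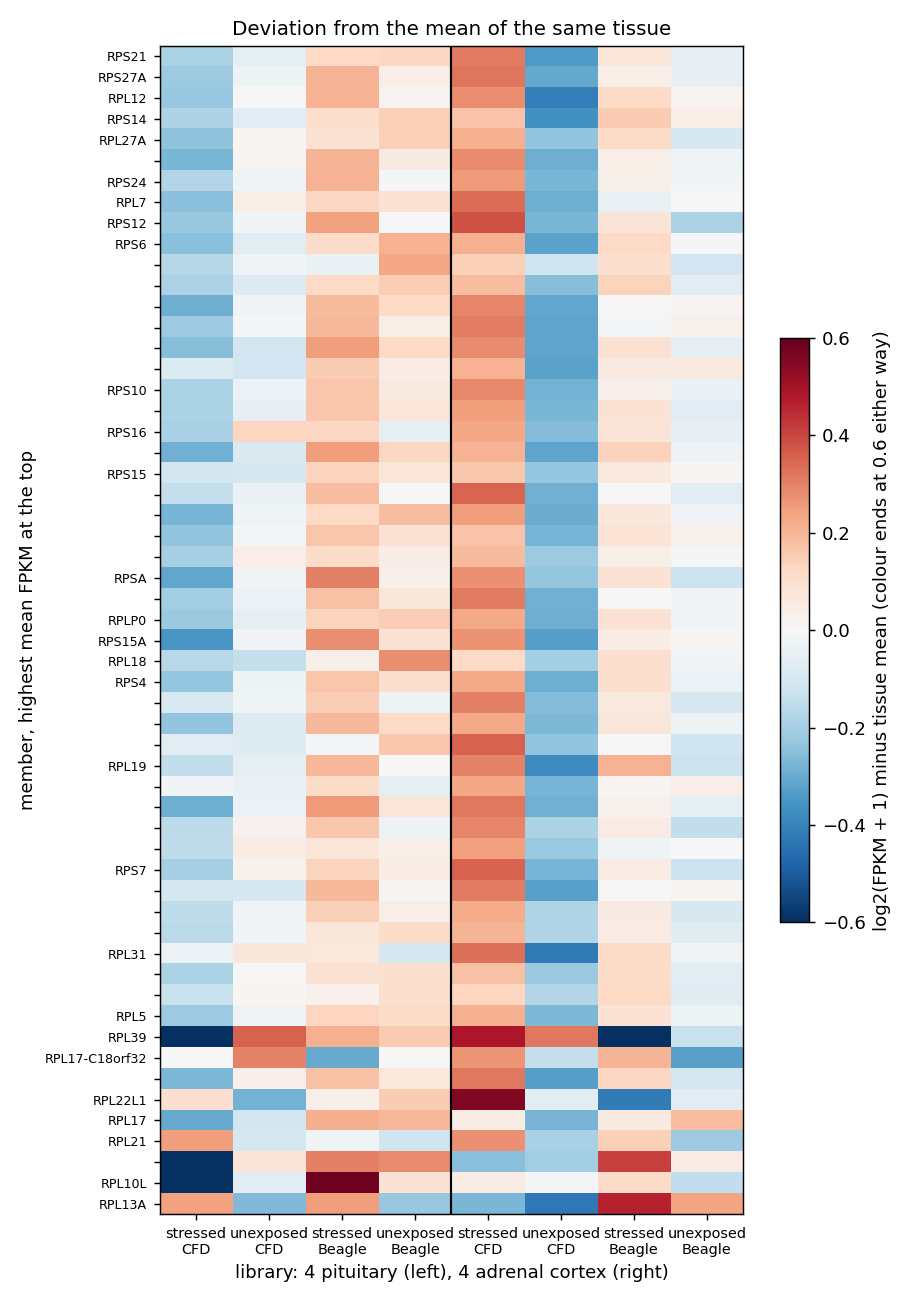
Deviation of log2(FPKM + 1) from the mean of the 4 libraries of the same tissue, for the 56 genes (rows, highest mean FPKM at the top, with symbols for the genes named in the text) in 4 pituitary and 4 adrenal cortex libraries (columns); red is above and blue below the tissue mean, and the colour scale ends at 0.6 in either direction. The stressed Chinese Field Dog column is mostly blue in pituitary and mostly red in adrenal cortex, and the last rows, of low genes such as RPL13A, vary apart from the rest.

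Stressed libraries were then set against unexposed ones of the same breed and tissue. Stressed libraries had higher ribosomal protein levels than unexposed ones in the adrenal cortex of both breeds, with 45 of 56 genes higher in both, a pattern of 25.5% of all genes. In Chinese Field Dog adrenal cortex, 55 of 56 genes were higher in the stressed library, against 49.8% of all genes, with a median log2 ratio of 0.52, or 1.44-fold, against 0.00 over all genes. In Beagle adrenal cortex, 46 of 56 were higher, against 48.6% of all genes, with a median of 0.12, or 1.08-fold, against 0.00. At least 1.5-fold higher were 19 genes in the Chinese Field Dog, against 3.3% of all genes, and 0 in the Beagle, against 2.32% of all genes. Each ratio compares 1 library with 1 library, so neither has a replicate check. Markers of other cells differed in the same pairs. The 5 endothelial markers summed to 163 FPKM in stressed and 121 FPKM in unexposed Chinese Field Dog adrenal cortex, and to 153 FPKM in stressed and 127 FPKM in unexposed Beagle adrenal cortex, with 0 of the 5 listed at 0 in any of these libraries. The 4 adrenal cortex markers summed to 15592 FPKM in stressed and 11658 FPKM in unexposed Chinese Field Dog adrenal cortex, and to 12089 FPKM in stressed and 13238 FPKM in unexposed Beagle adrenal cortex. In the Beagle, STAR was lower in the stressed library (5079 against 6288 FPKM) and CYP17A1 nearly level (4944 against 4949 FPKM). CYP11A1 (1968 against 1912 FPKM) and MC2R (97.4 against 88.9 FPKM) were higher there. The 4 adipocyte markers found summed to 55.6 FPKM in stressed and 35.7 FPKM in unexposed Chinese Field Dog adrenal cortex, and to 16.1 FPKM in stressed and 67.5 FPKM in unexposed Beagle adrenal cortex. The part of these cells in the stress ratios was not tested.

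RPL31, which lies by the exit of the peptide tunnel, had the highest ratio in Chinese Field Dog adrenal cortex. It was at 668 FPKM in stressed and 396 FPKM in unexposed Chinese Field Dog adrenal cortex, a log2 ratio of 0.75, and at 576 FPKM in stressed and 524 FPKM in unexposed Beagle adrenal cortex. The 95% Clopper-Pearson interval of its read ratio in the Chinese Field Dog, which covers counting error only, was 0.66 to 0.83. RPL12, at the base of the stalk, was at 5298 FPKM in stressed and 3284 FPKM in unexposed Chinese Field Dog adrenal cortex (log2 ratio 0.69), and RPL19 was at 1761 FPKM in the stressed and 1102 FPKM in the unexposed one (0.68). The counting interval of the read ratio lay above 0 for 52 genes and below 0 for 0 in the Chinese Field Dog. In Beagle adrenal cortex it lay above 0 for 43 genes and below 0 for 2. The same count over all genes was not made, and the genes share each library and its scaling. These counts are therefore no result about the set.

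In Beagle adrenal cortex the ratios were small and partly from weakly covered rows. The highest was that of RPL17-C18orf32, a read-through row, with 217 FPKM in stressed and 150.3 FPKM in unexposed Beagle adrenal cortex (log2 ratio 0.53, counting interval 0.43 to 0.67). RPL7, with the most reads, was at 3243 FPKM in stressed and 3355 FPKM in unexposed Beagle adrenal cortex (log2 ratio -0.05). RPL22L1 was at 78.4 FPKM in stressed and 100.4 FPKM in unexposed Beagle adrenal cortex (log2 ratio -0.35), and at 155 FPKM in stressed and 100.3 FPKM in unexposed Chinese Field Dog adrenal cortex.

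In pituitary the median ratios of the breeds had opposite signs, a difference that was not tested. In the Chinese Field Dog, 50 of 56 genes were lower in the stressed library, against 53.4% of all genes, with a median log2 ratio of -0.19 against -0.03 over all genes. In the Beagle, 41 of 56 genes were higher in the stressed library, against 49.2% of all genes, with a median of 0.09 against 0.00. The pattern of higher in Beagle and lower in Chinese Field Dog was shown by 37 of 56 genes and by 26.7% of all genes. The stressed Chinese Field Dog pituitary is the library with the high sums of neuron, glia and lymphocyte markers given above. The part of these cells in this result was not tested. Without it only the Beagle pair remains for stress in pituitary.

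RPSA shows the pituitary pattern. It was at 627 FPKM in stressed and 767 FPKM in unexposed Chinese Field Dog pituitary, and at 961 FPKM in stressed and 795 FPKM in unexposed Beagle pituitary, where its log2 ratio of 0.27 was the highest of the genes with at least 100 reads. RPS16, in the head of the small subunit, was at 968 FPKM in stressed and 1210.5 FPKM in unexposed Chinese Field Dog pituitary (log2 ratio -0.32), and at 1207 FPKM in stressed and 1063 FPKM in unexposed Beagle pituitary. RPL21 and RPL22L1 went the other way in the Chinese Field Dog pituitary, with log2 ratios of 0.35 and 0.38. RPS15A had a log2 ratio of -0.33 in FPKM in that pair, outside the counting interval of its read ratio, -0.28 to -0.16. FPKM and reads thus did not scale alike for this gene. Other genes showed this too, such as RPS21 in the Beagle pituitary pair, at -0.004 in FPKM against a counting interval of -0.15 to -0.04.

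When the breeds were taken as the 2 values of each tissue, 0 of 56 genes passed for stress in any fit. In adrenal cortex the median log2 difference, stressed minus unexposed, was 0.31 with 55 genes higher, against 49.8% of all genes. There 0 passed by limma, against 0.00675% of all genes, and 3 had an unadjusted p under 0.05, against 2.98% of all genes. In pituitary the median was -0.07 with 42 genes lower, against 52.5% of all genes, and 1 gene had an unadjusted p under 0.05, against 4.47% of all genes (0.00675% of all genes passed). The stress difference in pituitary minus that in adrenal cortex had a median of -0.37 with 55 of 56 genes lower, against 53.2% of all genes, and 1 gene had an unadjusted p under 0.05, against 3.55% of all genes (0.0135% of all genes passed). Over both tissues the median was 0.13 with 54 genes higher, against 51.1% of all genes, and 1 gene at an unadjusted p under 0.05, against 3.93% of all genes (0.0% of all genes passed). That median was 0.01 without the stressed and 0.07 without the unexposed adrenal cortex of the Chinese Field Dog, and 0.23 without the stressed pituitary of that breed. edgeR and DESeq2 on the reads also called 0 ribosomal protein genes in these comparisons. Of all genes, edgeR called 0 in each. DESeq2 called 10 in adrenal cortex, 64 in pituitary, 27 for the difference of the tissues and 25 over both tissues. With so few calls among all genes, a count of 0 tells little about the set. Counts were also simulated at a fixed dispersion of 0.02. On these, the adrenal cortex stress test recovered 0 of 50 genes changed 1.5-fold and 8 of 50 changed 2-fold. Recovery of changes below 1.5-fold, or at the levels and spread of the ribosomal protein genes, was not tested.

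Between the breeds, levels were lower in Chinese Field Dog than in Beagle pituitary under both exposures, for 46 of 56 genes against 30.5% of all genes. In stressed pituitary, 53 of 56 genes were lower in the Chinese Field Dog, against 53.5% of all genes, with a median log2 ratio of -0.35 against -0.03. In unexposed pituitary, 47 of 56 were lower, against 51.8% of all genes, with a median of -0.10 against -0.01. The stressed pair contains the library with the high neuron markers and the unexposed pair does not. The pairs also differ in exposure and share no library. The part of the marked cells in these breed ratios was not tested. RPL18 was at 773 FPKM in the Chinese Field Dog and 1036 FPKM in the Beagle unexposed pituitary (log2 ratio -0.42). RPS15A was at 558 FPKM in the Chinese Field Dog and 865 FPKM in the Beagle stressed pituitary (log2 ratio -0.63).

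In adrenal cortex the breed ratio changed sign with exposure. In stressed adrenal cortex, 52 of 56 genes had higher values in the Chinese Field Dog, against 47.7% of all genes, with a median log2 ratio of 0.17 against -0.01. In unexposed adrenal cortex, 52 of 56 genes were lower in the Chinese Field Dog, against 55.0% of all genes, with a median of -0.24 against -0.03. Both held together for 49 of 56 genes and for 22.3% of all genes. RPL7 was at 4225 FPKM in the Chinese Field Dog and 3243 FPKM in the Beagle stressed adrenal cortex (log2 ratio 0.38). RPL12 was at 3284 FPKM in the Chinese Field Dog and 4417 FPKM in the Beagle unexposed adrenal cortex (log2 ratio -0.43). These ratios use the same 4 libraries as the stress ratios in adrenal cortex, so they are another view of the same order of libraries and no separate evidence.

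By limma, 0 of 56 genes passed between the breeds in pituitary, against 0.0203% of all genes. The median log2 difference was -0.23, with 53 genes lower, against 53.3% of all genes, and 0 genes at an unadjusted p under 0.05, against 7.93% of all genes. In adrenal cortex 0 passed, against 0.0338% of all genes, with a median of -0.02 and 1 gene at an unadjusted p under 0.05, against 6.48% of all genes. The number lower in the Chinese Field Dog was 35 as deposited, 19 with libraries centred on their medians and 24 after TMM scaling. Over both tissues 0 passed, against 0.0473% of all genes. The median was -0.13, with 52 genes lower, against 53.8% of all genes, and 2 genes at an unadjusted p under 0.05, against 10.6% of all genes. This median was -0.02 without the stressed Chinese Field Dog pituitary, -0.05 without the unexposed adrenal cortex of that breed and -0.25 without its stressed adrenal cortex. The lowest adjusted p over both tissues was that of RPL17, a protein at the exit of the peptide tunnel, at 0.411 (log2 difference -0.33, SE 0.11, limma). edgeR and DESeq2 on the reads called 0 ribosomal protein genes between the breeds. Of all genes, edgeR called 3 in pituitary, 0 in adrenal cortex and 10 over both tissues. DESeq2 called 220 in pituitary, 98 in adrenal cortex and 335 over both tissues.

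**Figure D4:**
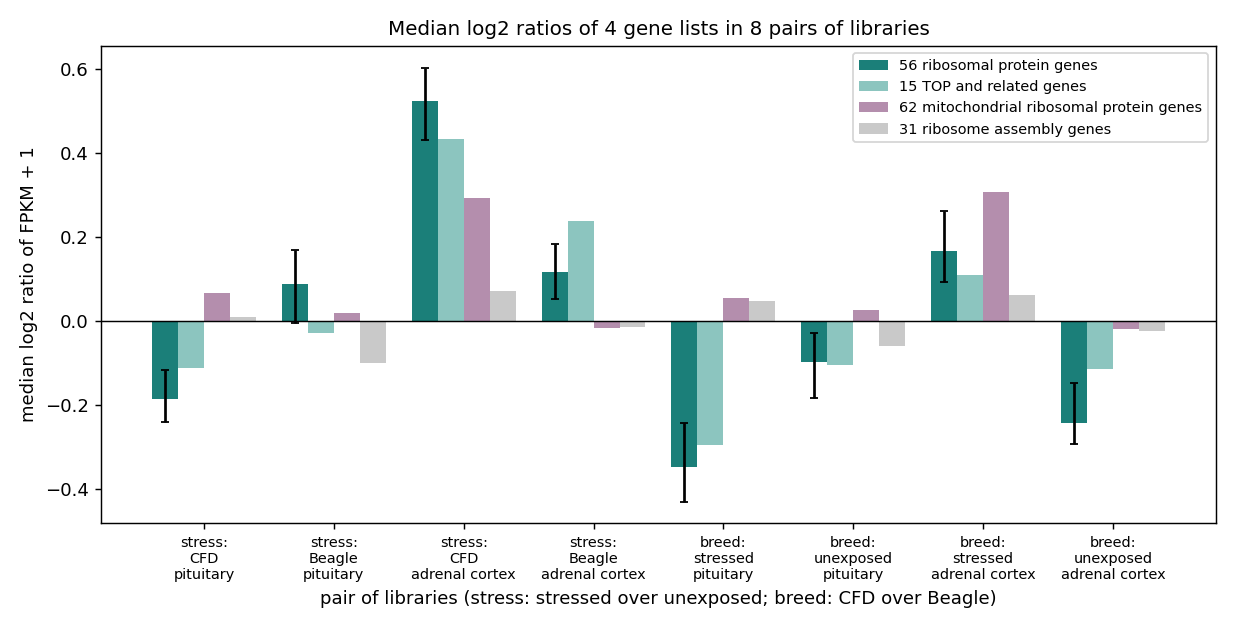
Median log2 ratio of FPKM + 1 in 8 pairs of libraries (stressed over unexposed, then Chinese Field Dog over Beagle) for the 56 ribosomal protein genes, 15 TOP and related genes, 62 mitochondrial ribosomal protein genes and 31 ribosome assembly genes; the error bars show the interquartile range over the 56 genes. The ribosomal protein median runs from -0.35 between the breeds in stressed pituitary to 0.52 with stress in Chinese Field Dog adrenal cortex.

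The related lists did not all follow. With stress in Chinese Field Dog adrenal cortex, all 15 TOP and related genes had higher values (median log2 ratio 0.43), among them NACA at 0.60 and EEF1A1 at 0.59, and 60 of 62 mitochondrial ribosomal protein genes had higher values (median 0.29). The 31 ribosome assembly genes had a median of 0.07 in that pair and the 26 TOR and TOP regulators a median of -0.12. The 1443 other genes in the tenth of tested genes with the shortest transcripts, judged by reads per FPKM, had a median of 0.13 in that pair, against 0.52 for the ribosomal protein genes. Between the breeds in stressed adrenal cortex, these short genes had a median of 0.14, against 0.17 for the ribosomal protein genes. In the remaining stress and breed pairs the median of the short genes lay between -0.02 and 0.01. The part of transcript length in these ratios was not tested. With stress in Chinese Field Dog pituitary, the median was -0.11 over the 15 TOP and related genes and 0.07 over the mitochondrial ribosomal protein genes. None of these lists held a gene that passed for stress by limma.

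The authors' deposited table of each pair of libraries gives a p-value per gene. Among the 66 genes, RPS27L was the only one at 0.05 or less, in 3 of the 8 authors' deposited tables (0.0374, 0.0428 and 0.0481), on 4 reads over all libraries. Of all 24580 rows, 1.54%, 0.309% and 0.285% had such a p in those 3 authors' deposited tables. Among the 56 tested genes, the lowest p in the authors' deposited tables was 0.329, for RPL22L1 between the breeds in stressed adrenal cortex.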

How the data were processed

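Messenger RNA of 8 libraries, 1 per combination of tissue, breed and exposure, was analysed. Per the submitters' processing notes, reads were aligned with TopHat to CanFam3.1. The deposited tables hold FPKM and p-values by the authors per gene and pair of libraries, and, per the file headers, a count scaled between libraries, used here as a signal with no strand stated. The scaled counts made by the authors were whole multiples of 0.899 to 1.17 per library; divided by that step, 99.46% to 99.55% of values below 1000 per library lay within 0.02 of a whole number. In the tissue comparison edgeR called 8966 genes on these reads.

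Genes with a mean of at least 1 FPKM (14808) entered limma (version 3.58.1, run in R version 4.3.3) as log2(FPKM + 1), with Benjamini-Hochberg adjustment and a threshold of 0.05. Fold changes are on that scale, which understates those of low genes. The tissue fit held tissue, breed and exposure (4 residual degrees of freedom), so the 4 combinations served as replicates of a tissue. Stress and breed within a tissue were fitted on 4 log2 ratios (2 residual degrees of freedom). P-values measure the spread between these libraries, which may come from single dogs or pools. Single pairs had no test. Reads of 14327356 to 18712035 per library were behind the values, and intervals cover counting error only.

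Genes were named by rule: RPLP0 and RPSA, the 5 highest and lowest by mean FPKM and by tissue difference, the 3 highest and lowest in each pair with at least 100 reads, paralogs, X-linked genes, Diamond-Blackfan anaemia genes and the 10 most similar other genes. Some genes that this rule or the lists name are not reported here. RPS6 and RPS15, and examples from the other lists, were chosen after their values were seen. The set of genes and all lists were chosen with earlier results of these data known. Alternatives were a pseudocount of 0.1, no filter, median centring, TMM, edgeR 4.0.16, DESeq2 1.42.0, summed repeat rows and a block. Each library was also left out of the fits over both tissues, and each ratio out of those within a tissue. The tests were checked on simulated counts.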

Additional observations from a re-analysis of the deposited data

Results flagged for a closer look

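The median log2 ratio of the 56 ribosomal protein genes with stress in pituitary had opposite signs in the breeds, -0.19 for Chinese Field Dogs and 0.09 for Beagles, and this difference was not tested, since each side is 1 pair of libraries. The stressed Chinese Field Dog pituitary of that pair held 1843 FPKM of forebrain neuron markers, against 137 FPKM in the unexposed one, and the part of this in the result was not tested.

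The median log2 ratio between the breeds in adrenal cortex, Chinese Field Dog over Beagle, also had opposite signs, 0.17 under stress and -0.24 in unexposed dogs, and this difference was not tested either. The adrenal medulla markers summed to 3160.4 FPKM in stressed and 3420.1 FPKM in unexposed Chinese Field Dog adrenal cortex, and to 4658 FPKM in stressed and 5492 FPKM in unexposed Beagle adrenal cortex. PNMT (382 against 345 FPKM) and CHGB (1414 against 1283 FPKM) were higher in the stressed Chinese Field Dog library. CHGA (1920 against 1752 FPKM) was higher in the stressed Beagle library. The other markers were lower with stress. Dixon's criterion at the 95% level was applied to the 4 libraries of each tissue, for 33 named genes and the share of reads. Of these 68 comparisons, 0 held a library far enough from the others to pass. They reuse the same libraries, so the 1 in 20 that chance gives for a single comparison does not carry over to this count. Markers of other cells were not among them, so the count does not show that no library stood apart.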

How the results depend on the processing

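With 1 library per group, only the tissue comparison has several libraries on each side, and even there breed and exposure differ within a tissue. The number of ribosomal protein genes that passed as lower in pituitary was 53 under a pseudocount of 0.1, median centring, TMM, edgeR, DESeq2 and summed repeat rows. It was 54 with no filter, which also admits genes below the minimum of 1 FPKM, so that count is not out of 56. It was 52 to 53 when each library was left out, where the median ran from -1.24 to -1.0. Of all genes, 8907 passed in either direction by limma, 8966 by edgeR and 8972 by DESeq2. With each library left out, 7573 to 9387 of all genes passed. The counts of ribosomal protein genes that passed for stress and breed were 0 under all of the settings named, also when each library was left out of the fits over both tissues. In the fits within a tissue, 1 of the 2 ratios was left out in turn, which leaves 1 pair of libraries. The medians were then those of the single pairs. They were 0.12 and 0.52 for stress in adrenal cortex and -0.19 and 0.09 for stress in pituitary. For breed they were -0.24 and 0.17 in adrenal cortex and -0.35 and -0.10 in pituitary. Centring libraries on their medians gave pair medians of -0.26 for stress in Chinese Field Dog pituitary, 0.22 and -0.20 for breed in stressed and unexposed adrenal cortex, and -0.43 for breed in stressed pituitary. Leaving the 10 most abundant other genes out of the totals gave mean shares of 3.44% in pituitary and 6.22% in adrenal cortex, by construction of the smaller total. RPL21 reversed to -0.016 with median centring and to -0.071 with repeat rows summed; the cause was not tested. No paired analysis was possible because the labels tie no libraries to the same dogs; a fit that matched the tissues by breed and exposure as a block, and not by dog, called 53 genes. Reads limit the values of RPL13A, RPL39 and RPL10L, which held 13, 155 and 206 reads in all.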

Other observations

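Over all genes, DESeq2 on the reads called 335 genes between the breeds over both tissues, against 7 by limma, and 0 of the 56 ribosomal protein genes were among them under either tool. In the pituitary breed comparison DESeq2 called 220 genes, against 3 by limma, again with 0 ribosomal protein genes.

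RPL6 and RPL37 are among the 18 RefSeq symbols without a row in the set, and the files hold unnamed rows described as these proteins. A pair of rows described as L6 averaged 835 ± 142 FPKM and 459 ± 90.6 FPKM in pituitary, against 1596 ± 298 FPKM and 916 ± 235 FPKM in adrenal cortex (SD, n = 4 each). The row described as L37 with the highest level averaged 88.3 ± 18.9 FPKM in pituitary and 201 ± 35.0 FPKM in adrenal cortex (SD, n = 4 each). Both L6 rows and this L37 row passed as lower in pituitary, with limma adjusted p-values of 0.0045, 0.00588 and 0.0036.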
